A study of Homo sapiens with 17 samples.

Results

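NUAK1 and NUAK2 are the 2 members of the NUAK kinase family, and their transcripts were 2 of the 58870 entries of the gene table. They were taken by symbol, and the family was selected because NUAK2 stood highest 1 h after TRAIL among the genes called higher whose log2 CPM averaged 2 or more. The comparison of 1 h with 0 h therefore chose the pair, and its values are given below as a description with no test. RNA came from MDA-MB-231, an established human line of triple-negative breast cancer cells, labelled as mesenchymal and basal B, and the study followed how gene expression moves over a day in cells given a suboptimal dose of TRAIL, a death ligand of the TNF family. The 17 libraries were made from cells at 0, 3, 6, 12 and 24 h (3 libraries each) and at 1 h (2 libraries, where the labels speak of triplicates), all with TRAIL at 45 nM. The 0 h libraries carry the TRAIL label too, and 0 untreated libraries of a later time were analysed here, so time with TRAIL and time in culture cannot be told apart. The line is 1 source of cells, and nothing in the labels says that the replicates came from separate cultures, so p-values measure the spread between these libraries only, which may be technical.

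NUAK kinases belong to the AMPK-related protein kinases, which the tumour suppressor kinase LKB1 (gene STK11) switches on by phosphorylating their activation loop. NUAK1, also called ARK5, binds the targeting subunits of the myosin phosphatase and phosphorylates MYPT1 (gene PPP1R12A), which changes actomyosin contraction and cell detachment. NUAK2, also called SNARK, acts on the same phosphatase, supports actin stress fibres, has been described as a target gene of YAP and TAZ, and has been linked to NF-kappa-B dependent survival under death receptor ligands. These statements are background from other work and were not measured here.

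NUAK1 (ENSG00000074590) is a protein-coding gene on the minus strand of chromosome 12, from 106063340 to 106140033, and NUAK2 (ENSG00000163545) is a protein-coding gene on the minus strand of chromosome 1, from 205302059 to 205321791 (GENCODE 29, GRCh38). Merged exons span 7008 bases in NUAK1 and 3441 bases in NUAK2. The promoter windows, 250 bases before the RefSeq start of each gene, are shown because the transcripts of the pair followed different courses. They are written 5′ to 3′ on the minus strand of GRCh38.p14, and capitals mark GGAATG, the core letters of sites for TEAD, the DNA-binding partner of YAP and TAZ, or its reverse complement CATTCC.
NUAK1, chr12:106138955-106139204: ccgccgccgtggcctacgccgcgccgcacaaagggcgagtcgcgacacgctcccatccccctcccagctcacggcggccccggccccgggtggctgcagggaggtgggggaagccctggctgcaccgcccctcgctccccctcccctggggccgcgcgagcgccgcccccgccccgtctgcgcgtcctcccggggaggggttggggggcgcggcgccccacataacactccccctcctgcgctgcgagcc
NUAK2, chr1:205321746-205321995: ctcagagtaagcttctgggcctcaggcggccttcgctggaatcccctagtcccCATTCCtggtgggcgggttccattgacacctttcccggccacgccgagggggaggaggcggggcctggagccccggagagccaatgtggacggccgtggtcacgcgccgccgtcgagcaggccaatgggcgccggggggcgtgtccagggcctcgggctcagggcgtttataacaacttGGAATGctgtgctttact
The RefSeq starts differ from the GENCODE 29 coordinates above. By those, the NUAK1 window lies wholly inside the gene body, and the NUAK2 window overlaps the gene body at its 3′ end. The NUAK2 window held GGAATG 18 bases before the RefSeq start and its complement 197 bases before it, and the NUAK1 window held 0. The nearer NUAK2 match, and the TATAA matches below, lie inside the GENCODE 29 gene body. Of all 35116 RefSeq promoter windows of this length, 11.9% held it on either strand. The letters CCAAT were found at 2 places in NUAK2 and at 0 in NUAK1, and 32.0% of windows held them. TATAA matched NUAK2 at 2 overlapping places on opposite strands and NUAK1 at 0, with 18.9% of windows matching. The CRE letters TGACGTCA (1.65% of windows), the AP-1 letters TGANTCA (6.57%), the kappa-B motif (9.96%) and the CArG box bound by SRF (1.16%) were each found 0 times in both windows. All motifs were searched on both strands. A match describes letters and not a bound site, and binding at these windows was not measured.

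Libraries held between 13731520 and 19234924 counts, and counts of both NUAK genes were whole numbers in all 17 libraries. The mesenchymal marker VIM lay between 484 and 722 RPKM (CPM, defined below, per kilobase of merged exons), whereas the epithelial marker CDH1 had 4 to 16 counts, ESR1 0 to 2 and PGR 0 to 1. Of the other epithelial and receptor markers, KRT18 was high, at 162 to 289 RPKM. EPCAM lay between 5.19 and 7.66 RPKM and ERBB2 between 5.46 and 6.87 RPKM. VIM was the highest of the mesenchymal markers read and ZEB1 the lowest, at 3.69 to 7.61 RPKM. Mitochondrial genes took a mean of 6.75 ± 1.46% of counts before the time course began, 8.68 ± 1.45% after 1 h and 8.59 ± 0.521% after 3 h, and then 4.49 ± 0.830%, 5.72 ± 0.953% and 3.90 ± 0.240% after 6, 12 and 24 h (SD, n = 3, with n = 2 for 1 h). This share was highest at 1 and 3 h, the times at which NUAK2 was also highest, and its part in the results was not tested. Transcript length and GC content accounted for 0.290% to 14.4% of how far genes in a library departed from their overall mean. An offset for this trend is named below where it changed a call of NUAK1 or NUAK2, and beside counts of called list genes. For single calls of SRF, PRKAA1, MARK2 and the genes within 100 kb of the pair, neither the offset nor another alternative was read. In bulk RNA, a change in the number of expressing cells and a change in RNA per cell cannot be told apart.

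NUAK2 transcript rose within 1 h, peaked at 3 h at about 4 times its starting level, and was back below 9 CPM in every library from 6 h on. CPM are counts relative to the library total after TMM scaling. At 0 h the 3 libraries held 4.29, 4.42 and 5.48 CPM (69, 71 and 88 counts), and at 1 h the 2 libraries held 13.2 and 10.7 CPM (208 and 161 counts). At 3 h the libraries held 19.7, 21.5 and 15.7 CPM (265, 277 and 219 counts). All 3 h libraries lay above both 1 h libraries, and both of those lay above every 0 h library.

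The later libraries of NUAK2 were lower and closer together. The 6 h libraries held 8.72, 6.57 and 7.77 CPM, the 12 h libraries 5.83, 6.47 and 6.05 CPM, and the 24 h libraries 8.37, 7.25 and 7.81 CPM. The 6 h and 24 h libraries overlapped each other, the 12 h libraries lay below both, and each of the 3 times lay between the 3 h and the 0 h libraries without touching either. By mean level the times ran in the order 3, 1, 24, 6, 12 and 0 h, with 19 ± 2.97, 11.9 ± 1.72, 7.81 ± 0.561, 7.69 ± 1.08, 6.12 ± 0.327 and 4.73 ± 0.649 CPM in turn (SD, n = 3, with n = 2 for 1 h). Every neighbour in this order was separate in its library values except 24 h and 6 h.

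**Figure D1:**
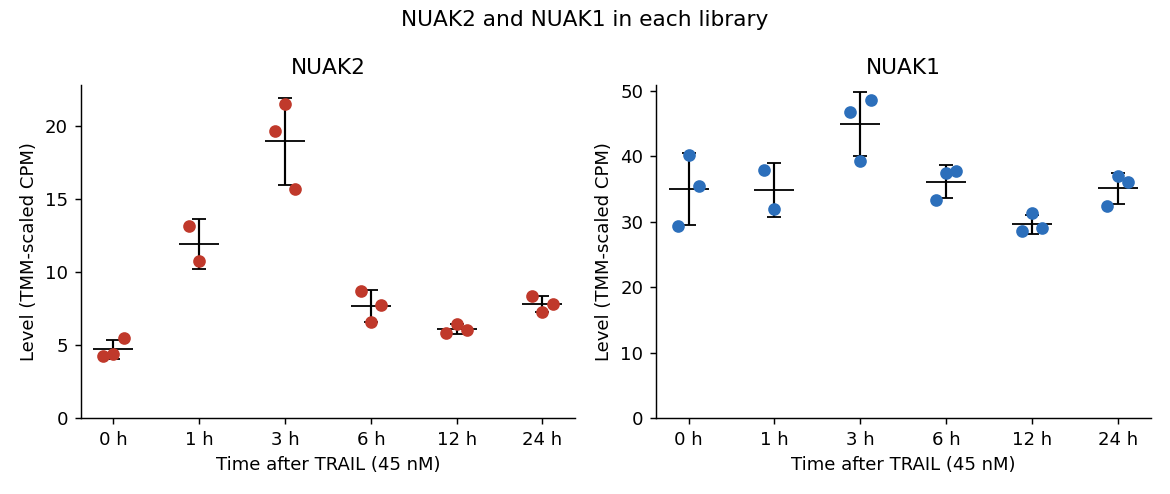
Level of NUAK2 (left) and NUAK1 (right) in CPM, on separate linear axes, against hours after TRAIL, with 1 point per library and bars for the mean ± SD of a time (3 libraries, 2 at 1 h). NUAK2 climbs from 4.73 CPM at 0 h to 19 CPM at 3 h and settles between 6.12 and 7.81 CPM, while NUAK1 moves between 29.6 and 44.9 CPM.

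Against 0 h, where the libraries are those that chose the gene, the log2 fold change of NUAK2 was 1.34 after 1 h (SE 0.157, a ratio of 2.53) and 2.00 after 3 h (SE 0.139). After 6, 12 and 24 h it was 0.70 (SE 0.150), 0.37 (SE 0.154) and 0.72 (SE 0.150). The values at 3 h and 12 h depended on the processing and were 1.71 and 0.57 with the length and GC offset. The step from 1 h to 3 h was 0.66 (SE 0.141). These figures describe the course and carry no test.

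The decline was tested among 3, 6, 12 and 24 h. The means of these times did not enter the fold change at 1 h. Their libraries did enter the shared spread and the limit on average log2 CPM. Replicates 2 and 3 of 6 h, and those of 24 h, were closer to each other than other replicates. The tests count them as separate libraries, which may overstate the precision at these times. NUAK2 fell by 1.30 on the log2 scale from 3 h to 6 h (SE 0.130, edgeR quasi-likelihood test, adjusted p = 1.44e-06), to a level 2.46-fold lower, where 20.3% of all genes tested were called lower. It was likewise 2.42-fold lower at 24 h than at 3 h (log2 -1.28, SE 0.130, adjusted p = 2.86e-07), where 26.8% of all genes were called lower. Over these 4 times NUAK2 changed with an adjusted p of 2.64e-08, and 62.1% of all genes tested passed the same F-test, so a call over these times is common in this series. After 6 h the level was flatter. The difference of 12 h from 6 h was -0.33 (95% range -0.61 to -0.047, adjusted p = 0.111), and that of 24 h from 12 h was 0.35 (0.069 to 0.63, adjusted p = 0.113). Neither passed the threshold of 0.05, which 11.9% of all genes passed downward from 6 h to 12 h and 6.42% upward from 12 h to 24 h, and the ranges hold both small and moderate changes.

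NUAK1 was the more abundant transcript and moved far less. The 0 h libraries held 29.4, 40.2 and 35.5 CPM, the 1 h libraries 37.9 and 32.0 CPM, and the 3 h libraries 46.7, 39.4 and 48.7 CPM. One of the 3 h libraries therefore fell within the 0 h range, and all 3 lay above the 1 h libraries. The 6 h libraries held 33.3, 37.4 and 37.7 CPM, the 12 h libraries 28.6, 31.3 and 29 CPM, and the 24 h libraries 32.4, 36.9 and 36.0 CPM. The 12 h libraries lay below those of 1, 3, 6 and 24 h and overlapped those of 0 h.

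By mean level the times ran in the order 3, 6, 24, 0, 1 and 12 h for NUAK1, with 44.9 ± 4.91, 36.1 ± 2.47, 35.1 ± 2.41, 35.0 ± 5.45, 34.9 ± 4.14 and 29.6 ± 1.47 CPM in turn (SD, n = 3, with n = 2 for 1 h). The values of 6, 24, 0 and 1 h overlapped one another. The spread between the 0 h libraries was the widest of the 6 times for this gene.

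After 1 h, when NUAK2 was already up, NUAK1 differed from 0 h by -0.0033 on the log2 scale (SE 0.118, no test, since this contrast chose the family). At 3 h it was 0.36 above 0 h (SE 0.104, a ratio of 1.28, adjusted p = 0.0226), where 9.04% of all genes tested were called higher and 8.71% lower. That call was lost without replicate 1 or 3 of 0 h (adjusted p = 0.0911 and 0.0609) or replicate 1 or 3 of 3 h (0.0803 and 0.0742), and the difference was 0.14 (adjusted p = 0.433) with the length and GC offset. After 6, 12 and 24 h the differences from 0 h were 0.046 (95% range -0.16 to 0.25), -0.24 (-0.45 to -0.033) and 0.0028 (-0.20 to 0.21), with adjusted p-values of 0.771, 0.143 and 0.99. The differences of NUAK2 from 0 h carry no test, so these ranges were not set against them.

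Among the later times NUAK1 was 0.31 lower on the log2 scale at 6 h than at 3 h (log2 -0.31, SE 0.104, adjusted p = 0.0196) and 0.36 lower at 24 h than at 3 h (log2 -0.36, SE 0.104, adjusted p = 0.00696). With the length and GC offset these became -0.079 (adjusted p = 0.675) and -0.17 (adjusted p = 0.292), and the F-test over 3 to 24 h went from an adjusted p of 0.000682 to 0.385. The first of the calls was also lost without replicate 1 or 3 of 3 h (adjusted p = 0.066 and 0.0784) or replicate 1 of 6 h (0.0733). The steps from 6 h to 12 h (-0.29, SE 0.105, adjusted p = 0.06) and from 12 h to 24 h (0.24, SE 0.106, adjusted p = 0.136) did not pass. Over all 6 times NUAK1 passed the F-test with an adjusted p of 0.00223, as did 64.2% of all genes tested.

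The balance between the paralogs shifted with time. Per kilobase of merged exons, NUAK2 stood at 1.37 RPKM and NUAK1 at 5.00 RPKM at 0 h, and at 3 h they stood at 5.51 and 6.41 RPKM. In the 0 h libraries the level of NUAK2 per length was 29.8%, 22.4% and 31.4% of that of NUAK1. It was 70.8% and 68.3% in the 1 h libraries, and 85.7%, 111% and 65.7% in the 3 h libraries. Replicate 2 of 3 h was the library in which NUAK2 exceeded NUAK1. By 6 h the share was 53.3%, 35.7% and 42.0%, by 12 h it was 41.5%, 42.1% and 42.5%, and by 24 h it was 52.7%, 40.0% and 44.1%. Every library from 6 h on was below every library of 1 and 3 h and above every library of 0 h.

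As this ratio divides 1 gene by the other within a library, scaling between libraries does not enter it. A trend with length or GC content can enter it, and the ratio was not tested with that offset. Across the 12 libraries of 3 to 24 h, the mean log2 ratio of NUAK2 to NUAK1 counts was -1.25, -2.24, -2.27 and -2.16 in order of time. The times differed in an exact permutation test of the F statistic over all 369600 assignments (p = 0.0153, 1 ratio tested). The test says that the 2 transcripts changed unequally, not that either was steady.

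**Figure D2:**
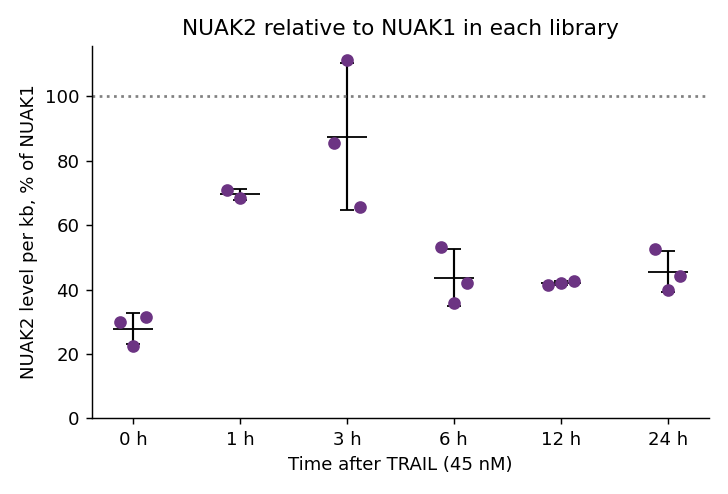
NUAK2 level per kilobase as a percentage of the NUAK1 level per kilobase in each of the 17 libraries, against hours after TRAIL, with bars for the mean ± SD of a time. The percentage averages 27.9 before and 87.5 after 3 h of TRAIL, with the widest spread at 3 h, and lies between 42.0 and 45.6 from 6 h on.

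At 1 h, 0.26% of all genes tested were called higher than at 0 h and 0.0521% lower, and NUAK2 was one of the 40 called higher. These values chose the family and support nothing. Among the 38 of them whose log2 CPM averaged 2 or more, NUAK2 was first with 1.34, and next below it came ATF3 (1.15, SE 0.110), a stress-induced transcription factor, ZNF93 (1.12, SE 0.111), a zinc finger protein, and EDN1 (1.08, SE 0.0969), which encodes the vasoconstrictor endothelin-1. CHRNA7, a nicotinic receptor subunit below that limit on expression, had a larger value (2.45, SE 0.509) from at most 4 counts per library at 0 h and 17 to 19 at 1 h.

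The genes next to NUAK2 in that ranking had other courses. For 0, 1 and 3 h in turn (SD, n = 3, 2 and 3), ATF3 held 10.4 ± 1.25, 23.1 ± 0.109 and 16.7 ± 1.54 CPM, and EDN1 held 26.8 ± 3.17, 56.7 ± 2.43 and 45.1 ± 1.54 CPM. ZNF93 went from 11.5 ± 0.633 to 25.0 ± 0.923 and again to 11.4 ± 0.769 CPM. Of these genes and NUAK2, only NUAK2 had a higher mean at 3 h than at 1 h, a description with no test. This was not particular to NUAK2. NFKBIA, JUNB, ZC3H12A, HBEGF and UGCG, chosen below for likeness to NUAK2, also had a higher mean at 3 h than at 1 h.

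Of the 8 annotated genes within 100 kb of NUAK2, 5 had at most 2 counts in any library, KLHDC8A, 14274 bases away, among them with 0 counts throughout. TMCC2, 16427 bases away, had 41 to 107 counts and was -0.45 at 3 h from 0 h on the log2 scale, not called. DSTYK, a kinase gene, was at -0.05 at 3 h, not called. It was called higher at 6 h (0.35) and 24 h (0.39), beside 16.9% and 18% of all genes. SNRPGP10, a processed pseudogene 29456 bases away with 32 to 78 counts, had means of 4.21 ± 0.957, 4.81 ± 0.268, 5.19 ± 0.286 and 3.16 ± 0.404 CPM for 0, 1, 3 and 6 h in turn. It was not called against 0 h at 3 h (0.30, adjusted p = 0.335). At 6 h it was lower than at 3 h (-0.72, adjusted p = 0.0105), as NUAK2 and 20.3% of all genes tested were. Its counts were not whole in 16 libraries. Near NUAK1, the antisense gene AC011595.1 within its body had 0 counts in every library. CKAP4, 97844 bases away, was -0.15 at 3 h and called lower, beside 8.71% of all genes. It was called higher at 24 h (0.16), beside 18% of all genes. None of the tested neighbours of either gene was called at 1 h, when 0.312% of all genes were.

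Over the 17 libraries, the course of NUAK2 in log2 CPM was most like those of NFKBIA (Pearson r = 0.921), which encodes the NF-kappa-B inhibitor I-kappa-B alpha, JUNB (0.913), an AP-1 subunit, ZC3H12A (0.913), the RNase regnase-1, HBEGF (0.913), an EGF receptor ligand, and UGCG (0.884), glucosylceramide synthase. These were the 5 highest of 11328 genes whose log2 CPM averaged 2 or more. The libraries of a time share their time, so the points are not independent and the correlations are descriptions. For 0, 1, 3 and 6 h in turn, NFKBIA held 44.3 ± 1.69, 71.0 ± 2.14, 116 ± 3.33 and 70.4 ± 4.48 CPM. JUNB held 29.4 ± 0.139, 50.9 ± 3.97, 99.2 ± 8.42 and 48.6 ± 3.33 CPM for the same times. Both peaked at 3 h as NUAK2 did, and NFKBIA stood at 76.4 ± 3.95 CPM at 24 h while JUNB stood at 37.5 ± 2.51.

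NUAK1 was most like ZNF57 (r = 0.896), a zinc finger gene, LATS2 (0.895), a Hippo pathway kinase that inactivates YAP and TAZ, TBC1D12 (0.882), ALDH1B1 (0.845), a mitochondrial aldehyde dehydrogenase, and SAV1 (0.845), a scaffold protein of the Hippo pathway. LATS2 held 36.9 ± 0.491, 40.1 ± 4.50, 46.7 ± 4.61, 40.6 ± 1.64 and 34.3 ± 2.64 CPM for 0, 1, 3, 6 and 12 h in turn, the same high at 3 h and low at 12 h as NUAK1. SAV1 counts were not whole in any library, which arises when reads are divided between genes. Between NUAK1 and NUAK2 themselves r was 0.619.

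**Figure D3:**
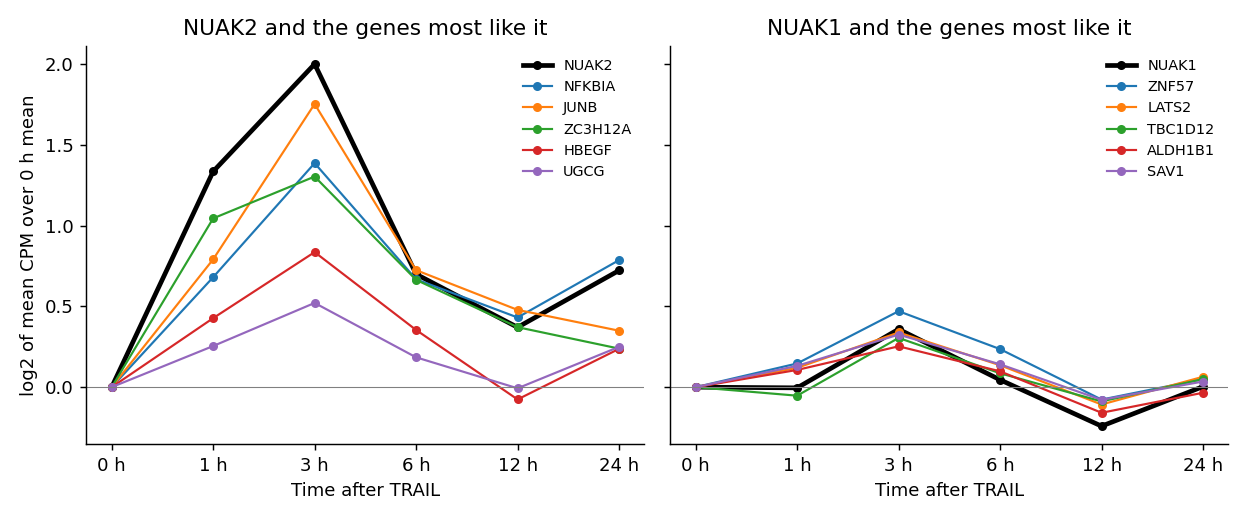
Mean CPM at each time as log2 of its ratio to the 0 h mean, for NUAK2 (left) and NUAK1 (right) and the 5 genes most like each. NUAK2 reaches the highest point of its panel at 3 h, and the NUAK1 panel stays within a much narrower band. The genes were chosen for likeness and the panels carry no test.

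The activators and targets of the kinases were read from lists chosen by function. All comparisons with 0 h use the same 3 libraries and so are not independent of one another. Of the LKB1 complex, all 5 genes were tested. STK11, the kinase that activates NUAK1 and NUAK2, held 65.0 ± 5.70 CPM at 0 h and was called at 0 of the 5 later times against 0 h, with a log2 difference of 0.15 after 3 h (adjusted p = 0.21) and -0.05 after 24 h (adjusted p = 0.654). Reads of STK11 were divided with other genes in 16 libraries, where its counts were not whole. The scaffold gene CAB39 rose by 6 h (0.44, adjusted p = 0.00202) and 24 h (0.40, adjusted p = 0.00352), and its paralog CAB39L by 24 h (0.35, adjusted p = 0.0174). In all, 1 of 5 was called higher by 6 h and 2 by 24 h, with 0 lower. Of all genes tested, 16.9% were called higher and 13.2% lower at 6 h, and 18% were called higher and 17.1% lower at 24 h. With the length and GC offset 0 were called higher at 24 h, and CAB39L was not called there without replicate 2 of 0 h or replicate 3 of 24 h.

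Of the 13 other AMPK-related kinases 12 were tested, BRSK2 having 0 to 9 counts. At 1 h 0 were called, as were 0.312% of all genes in either direction, and at 3 h 0 were called, where 17.7% of all genes were. At 6 h 4 were called higher, beside 16.9% of all genes, among them PRKAA1 (0.39, adjusted p = 0.0113), a catalytic subunit of AMPK, and MARK2 (0.33, adjusted p = 0.00101), a microtubule-affinity kinase. The count at 6 h was 1 with the length and GC offset, without replicate 3 of 6 h, or with replicates 2 and 3 averaged, and it was 2 without replicate 2 of 6 h. By 12 h 1 was higher, a call absent in 13 of the 17 fits with 1 library left out, and by 24 h 2 were higher, beside 5.96% and 18% of all genes. The count of 24 h was 0 without replicate 1 of 0 h or replicate 2 of 24 h, 1 without replicate 3 of either time, and 4 without replicate 1 of 24 h. Both counts were 0 with the length and GC offset, and also with replicates 2 and 3 averaged. SIK1, a salt-inducible kinase, had a log2 difference of 0.83 at 1 h (SE 0.504, adjusted p = 0.987), and none of its counts was whole. The list's median log2 difference was -0.00083 at 3 h, where that of NUAK2 was 2.00 and the median of all genes was -0.0041. Whether NUAK2 differed from the list was not tested.

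The phosphatase and myosin genes around the targets of NUAK1 and NUAK2 had most of their calls at 6 h and 24 h, as all genes did, with 17.7%, 30.1%, 12.4% and 35.1% of all genes called at 3, 6, 12 and 24 h in turn. Of 15 tested, 0 were called at 1 h. By 3 h 2 were higher and 1 lower, by 6 h 6 were higher and 1 lower, by 12 h 1 was higher and 0 lower, and by 24 h 4 were higher and 4 lower. At 12 h, 5.96% of all genes were called higher and 6.48% lower. PPP1R12A, the MYPT1 gene, was 0.52 higher at 6 h than at 3 h (adjusted p = 0.0016). Its reads were split between genes in all 17 libraries. With the length and GC offset 5 genes were lower and 0 higher by 3 h, and 3 were higher and 0 lower by 6 h. By 24 h 0 were called in either direction with that offset. With replicates 2 and 3 averaged, 4 were higher and 0 lower by 6 h, and 2 were higher and 1 lower by 24 h. The higher count of 3 h was 1 without replicate 2 of 0 h or of 3 h, and the lower count was 0 without replicate 3 of 0 h or replicate 2 of 3 h and 2 without replicate 3 of 3 h. The lower count of 6 h was 0 without replicate 1 of 0 h or replicate 2 or 3 of 6 h, and the higher count of 12 h was 0 without replicate 1 of 0 h or replicate 2 of 12 h. The counts of 24 h were 2 higher and 2 lower without replicate 2 of 24 h, and the lower count was 1 without replicate 1 of 0 h and 2 without replicate 3 of 24 h. The call of PPP1R12A held in each alternative.

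All 10 other partners and regulators of NUAK1 and NUAK2 were tested. YAP1 and WWTR1 (TAZ) had their lowest means at 3 h, as did PPP1R12A of the list above. How many of all genes had their lowest mean at 3 h was not counted. YAP1 held 132 ± 15.3, 103 ± 10.8 and 201 ± 25.3 CPM for 0, 3 and 24 h in turn. WWTR1, whose counts were mostly not whole, was lower at 3 h than at 0 h (log2 -0.49, adjusted p = 0.00337), and YAP1 did not pass there (-0.36, adjusted p = 0.0727). At 24 h YAP1 was higher than at 0 h (0.61, adjusted p = 0.00265). LATS2 was the 1 gene of the list called higher at 3 h (0.34, adjusted p = 0.00769), and PPP1R10, a phosphatase-1 subunit, the 1 gene called at 1 h (-0.32, adjusted p = 0.0282). The call at 1 h was lost without replicate 1 or 2 of 0 h or replicate 1 of 3 h, or with averaged replicates, and the offset for length and GC content ended both. WWTR1 was the 1 gene called lower at 3 h, and 2 were lower there without replicate 1 of 0 h or either library of 1 h. Of all genes, 0.0521% were called lower at 1 h, and 9.04% were called higher and 8.71% lower at 3 h. The list had 7 genes higher by 6 h, 1 by 12 h and 8 by 24 h, with 0 lower, beside 16.9%, 5.96% and 18% of all genes called higher. The call of 12 h was lost without any 1 library of 0 h or replicate 2 or 3 of 12 h. With the length and GC offset the counts were 3, 0 and 2, and 5 genes instead of 1 were lower at 3 h. The calls of WWTR1 at 3 h and YAP1 at 24 h held in each alternative.

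Genes that read out actin through SRF, or YAP and TAZ through TEAD, were listed together with SRF and the MRTF genes themselves. Most of this list was called higher by 3 h, when NUAK2 was also up. MRTFB was not, with 10.5 ± 0.617 CPM at 0 h and 8.51 ± 0.631 CPM at 3 h. VCL and FLNA had nearly the same means at these times. For 0 and 3 h in turn, VCL held 268 ± 13.5 and 261 ± 20.4 CPM, and FLNA held 1565 ± 183 and 1583 ± 56.1 CPM. Of 14 tested, 4 were called higher at 1 h and 11 at 3 h, with 0 lower at either time, beside 0.26% and 9.04% of all genes called higher. By 6 h 6 were higher and 3 lower, by 12 h 1 was higher and 5 lower, and by 24 h 3 were higher and 6 lower. Of all genes, 16.9%, 5.96% and 18% were called higher at these times and 13.2%, 6.48% and 17.1% lower. For 0, 1, 3 and 24 h in turn, CCN1, a matricellular protein and YAP target, held 1350 ± 94.2, 2457 ± 120, 2112 ± 65.5 and 883 ± 59.5 CPM. For 0, 1, 3 and 6 h, ANKRD1, a YAP target, held 318 ± 17.6, 423 ± 12.6, 595 ± 18.3 and 235 ± 10.6 CPM. ANKRD1 thus peaked at 3 h as NUAK2 did and fell below its 0 h libraries at 6 h, where every NUAK2 library was above those of 0 h. SRF itself was 0.47 above 0 h at 3 h (adjusted p = 1.92e-06). The count at 3 h was 7 without replicate 3 of 0 h, replicate 1 of 3 h or replicate 2 of 3 h, and 3 with the length and GC offset, and the count at 1 h was 1 with that offset. At 6, 12 and 24 h the offset left 3, 1 and 1 higher and 0, 1 and 4 lower, and 2 were higher at 12 h without replicate 1 of 6 h or of 24 h. The calls of CCN1 and ANKRD1 at 3 h held in each alternative.

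**Figure D4:**
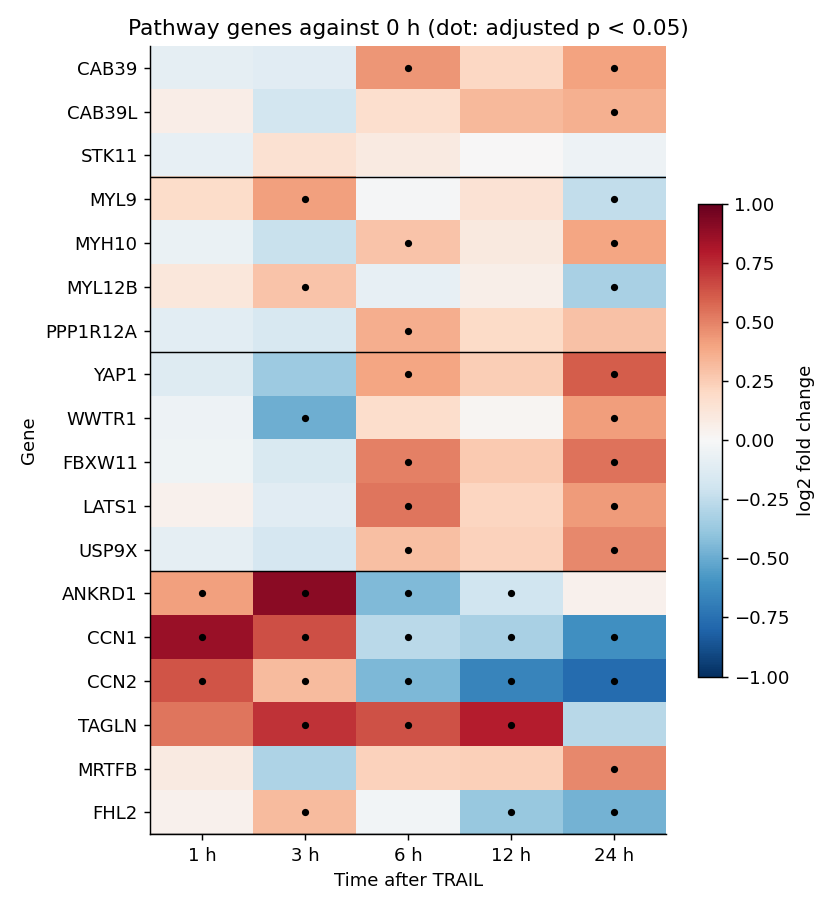
Log2 fold change against 0 h (colour, from -1 to 1) at 1, 3, 6, 12 and 24 h for 18 genes of 4 of the lists, set apart by lines, with dots for genes called by edgeR at an adjusted p below 0.05. ANKRD1 has its highest value, 0.90, at 3 h, the time of the NUAK2 peak, and WWTR1 has its lowest, -0.49, at the same time.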

How the data were processed

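RNA sequencing measured gene expression in 17 libraries of MDA-MB-231 cells. Per the submitters' processing notes, cutadapt 1.18, STAR 2.7.0f and the build hg38 were used. The authors deposited 1 table of expected counts per gene, unscaled, and the name of the file points to RSEM. Which annotation release and which strand setting RSEM used are not given in the sources used here. Entries joined an Ensembl identifier and a symbol, and 58597 of 58870 matched GENCODE 29 without the version.

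Rounding to whole numbers preceded the fits. The totals of 13731520 to 19234924 per library set the precision. The filterByExpr step of edgeR 4.0.16 (R 4.3.3) left 15365 genes, and libraries were scaled by TMM. All 17 libraries entered a single robust quasi-likelihood model that gave each time its own mean, so the times share 1 estimate of the spread. A gene was called at a Benjamini-Hochberg adjusted p below 0.05 over all genes tested, and adjusted p-values are those of edgeR. Log2 CPM used a prior count of 2, the ratio of the pair a prior count of 0.5, and 95% ranges are 1.96 SE either way. RPKM divide CPM by merged exon length. Fits and the exact permutation test were tested on simulated data.

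The members and lists were chosen with earlier results of these data known. Genes named besides the members were the 3 next below NUAK2 at 1 h, the 5 most like each member, list members called and shifted by 0.5 or more on the log2 scale (at most 6 a list), STK11, and neighbours within 100 kb. CHRNA7, BRSK2, SIK1, SRF, VCL, FLNA, PRKAA1, MARK2 and PPP1R10 fall outside that rule and were named after their values were seen, as was LATS2 as a list member. Some genes that the rule named are not reported here.

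Alternatives were RLE and upper-quartile factors, library size alone, no filter, a minimum mean count of 10, the tools DESeq2 1.42.0 and limma-voom 3.58.1, non-robust estimation, only the groups compared, a replicate block, unrounded counts, an offset for length and GC content (15329 genes), averaging of replicates 2 and 3 of 6 h and of 24 h, which were closer than other replicates, and each library left out. The mean chi-square per gene, for counts shared out by library total, was 1.57 and 1.66 for these pairs of 6 h and 24 h. Other pairs of a time lay between 3.44 and 12.3. Promoter windows are from RefSeq (GRCh38.p14), and both members matched. Protein sequences were not used here.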

Additional observations from a re-analysis of the deposited data

How the results depend on the processing

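Tests of NUAK2 alone and the exact test of the ratio (6 of 6) kept their direction and side of the threshold in every alternative run. For the ratio, the alternatives were a prior count of 2, a replicate block, averaged pairs and 1 library left out. The length and GC offset was not among them. Left-out libraries moved the NUAK2 difference of 6 h from 3 h between -1.42 and -1.20, and the length and GC offset gave -0.87. For the ratio, p lay between 0.011 and 0.0264 with 1 library left out and between 0.0155 and 0.0486 otherwise. Of the 9 tests of NUAK1, 8 changed call or sign. With library size alone, NUAK1 was 0.29 at 3 h against 0 h, -0.24 at 6 h against 3 h and -0.21 at 24 h against 3 h, none of them called. With the length and GC offset these were 0.14, -0.079 and -0.17, the F-test over 3 to 24 h had an adjusted p of 0.385, and 24 h against 0 h was -0.033. With upper-quartile factors NUAK1 was -0.023 at 6 h and -0.021 at 24 h against 0 h, and the 24 h value was also -0.0033 with a mean count of at least 10, -0.034 with averaged pairs and -0.0060 from the groups compared alone. At 12 h against 6 h it was called without a filter (-0.28) and from the groups compared alone (-0.26). With 1 library left out, NUAK1 ranged from 0.25 to 0.47 at 3 h, -0.067 to 0.16 at 6 h, -0.36 to -0.13 at 12 h and -0.11 to 0.11 at 24 h, each against 0 h, from -0.40 to -0.26 at 6 h against 3 h, and from -0.34 to -0.25 at 12 h against 6 h. The 12 h difference was called without replicate 1 of 0 h (-0.36, adjusted p = 0.0408), and the step from 6 h to 12 h without replicate 1 or 2 of 0 h, replicate 2 of 3 h or replicate 1 of 6 h. Under the offset, values of MYL9 (0.067, 6 h against 3 h), MYL12B (-0.049, 3 h against 0 h, and 0.13, 6 h against 3 h) and STK11 (0.11, 24 h against 3 h) changed sign. The LKB1 complex had 4 genes called over all times with upper-quartile factors instead of 2, and the other AMPK-related kinases 2 instead of 5 with averaged pairs. The cause was not tested. Of all genes, the number called at 1 h was 48 and, with no filter, 195. With the length and GC offset it went from 2727 to 4480 at 3 h, 4627 to 1565 at 6 h, 1911 to 700 at 12 h and 5388 to 1802 at 24 h against 0 h, from 3168 to 1020 between 6 h and 12 h, and from 1847 to 746 between 12 h and 24 h. With averaged pairs the numbers were 2532 at 6 h, 3464 at 24 h, 1670 between 6 h and 12 h and 452 between 12 h and 24 h.

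The labels do not say that a replicate number marks a shared origin, and deviations of same-numbered libraries correlated between -0.20 and 0.21, against -0.16 to 0.20 for different numbers, so the numbers were not taken to pair the libraries. Of 17 libraries, 10 correlated best with their own number, a hint from the data and not from the design. With a replicate block, NUAK2 at 6 h against 3 h was -1.30 (adjusted p = 2.11e-06), NUAK1 at 3 h against 0 h was 0.36 (adjusted p = 0.0202), and no call of either gene changed. Counts of all genes called moved by less than 1.5 times under the block. NUAK2 had 69 to 88 counts at 0 h, which limits its precision there more than that of NUAK1, with 417 to 699 counts over all libraries.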
